A study of Mus musculus with 6 samples.

Results

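The 10 genes described here form a panel of the NRF2 antioxidant program and of cellular iron handling. Nfe2l2 encodes NRF2 itself, and Hmox1, Nqo1, Gclm, Slc7a11, Txnrd1 and Srxn1 are textbook targets of it. Gpx4 encodes the glutathione peroxidase that reduces lipid hydroperoxides, while Slc40a1 and Tfrc encode the exporter and the transferrin-bound importer of iron. They were matched by gene symbol, and all 10 were among the 56092 symbols of the deposited count table. The filter on low counts left 13528 genes for testing, 9 of the 10 among them. Nqo1 was not tested.

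The libraries came from RAW264.7, a mouse macrophage line, carrying a lentiviral vector with GFP and either a control hairpin (shNC, 3 libraries) or a hairpin against Trem2 (shTrem2, 3 libraries). Trem2 encodes a lipid-sensing receptor of macrophages. Transduced cells were kept under puromycin as stable lines. Cells of both groups were exposed to IL-4 (20 ng/mL, 24 hours) before freeze-thaw debris of TCMK-1 cells, a mouse kidney tubular line, was added for another 24 hours. Which of the study's Trem2 hairpins these libraries carry is not stated, the series text calls shNC an empty vector, and no library lacked IL-4 or debris. Nothing says that the replicates were separate cultures, so p-values measure the spread between these libraries, which may be technical.

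The libraries held 15876061 to 18088372 counts with a gene symbol in shNC and 19358113 to 19655158 in shTrem2, so that every shTrem2 library was the deeper. Values below are CPM, counts scaled to the composition-adjusted library size, and limits set from a count of 0 cover counting error only. Trem2 was at 127 ± 15.4 CPM in shNC and 69.4 ± 9.42 in shTrem2 (SD, n = 3 each), a log2 fold change of -0.87 (edgeR adjusted p 3.39e-06). On the log2(FPKM + 0.1) scale, which is corrected for effective length, the Trem2 difference was -2.08. Of 10 macrophage markers, 8 exceeded 1 CPM in every library, although Arg1, the gene by which the series text names these cells, stayed at 3 counts or fewer in all of them. The summed macrophage markers ranged from 5430 to 6411 CPM in shNC and from 10480 to 11850 in shTrem2, a sum dominated by Lyz2 (mean 2805 and 7365 CPM). The single markers were divided, and the 9 tested all passed (adjusted p under 0.05), where 57.4% of all tested genes did. Of the 9, 7 were higher and 2 lower, where 28.8% and 28.6% of all tested genes were. The lower ones were Itgam (log2 fold change -0.78, edgeR adjusted p 8.43e-09) and Adgre1 (-0.56, edgeR adjusted p 3.54e-05). Of 16 tubular epithelial markers, 8 were at 0 in every library, among them Epcam, Cdh1, Umod and Havcr1. The 16 summed to 0.943 to 1.491 CPM in shNC and 2.348 to 2.978 in shTrem2. Aqp1 reached 50 counts, while no other of the 16 exceeded 8 counts in any library. The part of these markers in the results below was not tested.

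NRF2 is a transcription factor that the adaptor KEAP1 holds in the cytoplasm and directs to degradation. When electrophiles or oxidants modify KEAP1, NRF2 accumulates, pairs with a small MAF protein and binds antioxidant response elements in the promoters of its targets, sites that the repressor BACH1 can also occupy. Genes of iron handling are also controlled after transcription. The iron regulatory proteins IRP1 (Aco1) and IRP2 (Ireb2) bind hairpins called iron-responsive elements, which blocks translation when the hairpin lies in the 5′ UTR and protects the transcript when it lies in the 3′ UTR. Macrophages that take up heme degrade it with HO-1 (Hmox1), store the iron in ferritin and release it through ferroportin (Slc40a1). Whether the debris used here carried heme is not stated.

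The iron members of the panel carry these hairpins in their reference transcripts, and the sequences are shown here. Transcript counts do not read the translation that a 5′ UTR hairpin controls. The part of the hairpins in the results below was not tested. The search asked for 5 base pairs, an unpaired C, 5 further pairs and the loop CAGTGN, with 1 mismatch allowed in the outer pairs. It found a match in 30 of 21877 genes with a protein-coding transcript (0.137%), in GENCODE M21 on GRCm38, whose build differs from the GRCm39 named in the submitters' processing notes. Loop letters are in capitals and each sequence is 27 bases, 5′ to 3′. The hairpins of Slc40a1 (chr1:45925466-45925492, minus strand), Fth1 (chr19:9982733-9982759, plus strand) and Ftl1 (chr7:45459780-45459806, minus strand) lay in the 5′ UTR.
Slc40a1: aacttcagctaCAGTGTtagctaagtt
Fth1: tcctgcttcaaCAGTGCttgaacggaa
Ftl1: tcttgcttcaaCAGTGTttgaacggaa

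Tfrc held 4 distinct matches in its 3′ UTR on the plus strand of chromosome 16, at chr16:32631220-32631246, chr16:32631599-32631625, chr16:32631664-32631690 and chr16:32631711-32631737, and it was the only gene of the 21877 with 2 or more. They are given in that order.
Tfrc, nearest the coding sequence: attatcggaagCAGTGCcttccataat
Tfrc, next: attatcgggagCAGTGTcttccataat
Tfrc, next after it: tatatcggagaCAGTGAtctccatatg
Tfrc, farthest from the coding sequence: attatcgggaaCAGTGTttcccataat

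The other 8 members held no match to these letters. Slc11a2, an iron transporter gene described below, held none either. A hairpin of another form would be missed by this search. In the promoters, the antioxidant response element was searched as TGACNNNGC on both strands from 250 bases before to 50 after each RefSeq start site (GRCm38.p6). It was present in 12.4% of 32851 windows and, counted by gene, in 14.0% of symbols. Of the 8 members in the promoter table, 4 held it, Nfe2l2, Gclm, Txnrd1 and Srxn1. Hmox1 and Slc40a1 had no window there, so their promoters were not searched. The looser TGANNNNGC, which includes every match of the first motif and was added after the windows were seen, was in 45.0% of symbols and in 5 of the 8 members, with Slc7a11 as the addition. The 250 bases before the start are shown for Srxn1 (chr2:152105274-152105523, plus strand) and Slc7a11 (chr3:50443614-50443863, minus strand), which held the most matches to TGANNNNGC in this stretch, 3 and 2, and differed in their transcript response. Capitals mark the matches, all of them to TGANNNNGC and none to TGACNNNGC. The TGACNNNGC match of Srxn1 lay after the start site (offset 28), outside the bases shown.
Srxn1: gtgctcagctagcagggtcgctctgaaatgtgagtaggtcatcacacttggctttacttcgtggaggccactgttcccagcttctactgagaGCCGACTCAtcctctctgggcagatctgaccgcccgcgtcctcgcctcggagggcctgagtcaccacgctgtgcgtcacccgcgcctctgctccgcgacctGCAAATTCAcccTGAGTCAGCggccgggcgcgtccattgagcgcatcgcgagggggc
Slc7a11: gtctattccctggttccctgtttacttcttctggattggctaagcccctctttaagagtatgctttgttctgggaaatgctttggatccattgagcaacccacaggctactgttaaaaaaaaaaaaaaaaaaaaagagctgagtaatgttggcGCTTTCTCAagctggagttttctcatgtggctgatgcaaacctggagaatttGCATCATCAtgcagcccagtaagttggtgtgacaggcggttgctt

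Across the panel, Slc7a11 was higher in shTrem2 than in shNC and Hmox1 and Slc40a1 were lower, all by more than 1.5-fold. Nfe2l2 and Tfrc were higher by smaller factors. Gclm, Gpx4, Txnrd1 and Srxn1 did not pass the test. A differentially expressed gene (DEG) here had a Benjamini-Hochberg adjusted p under 0.05 in edgeR's quasi-likelihood test over all tested genes and a fold change over 1.5. By this rule 3 of the 9 tested members were DEGs, 1 higher and 2 lower, where 21.8% of all tested genes were DEGs (9.46% higher and 12.4% lower). Without the fold criterion 5 passed, 3 higher and 2 lower, where 57.4% of all tested genes did (28.8% higher and 28.6% lower). The groups did not overlap in 5 of the 9 either, where this held for 63.8% of all tested genes. The counts of 5 were therefore near the background, and the median log2 fold change of the 9 was 0.03, beside 0 over all tested genes. In bulk RNA a difference in the number of expressing cells and a difference in RNA per cell cannot be told apart.

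**Figure D1:**
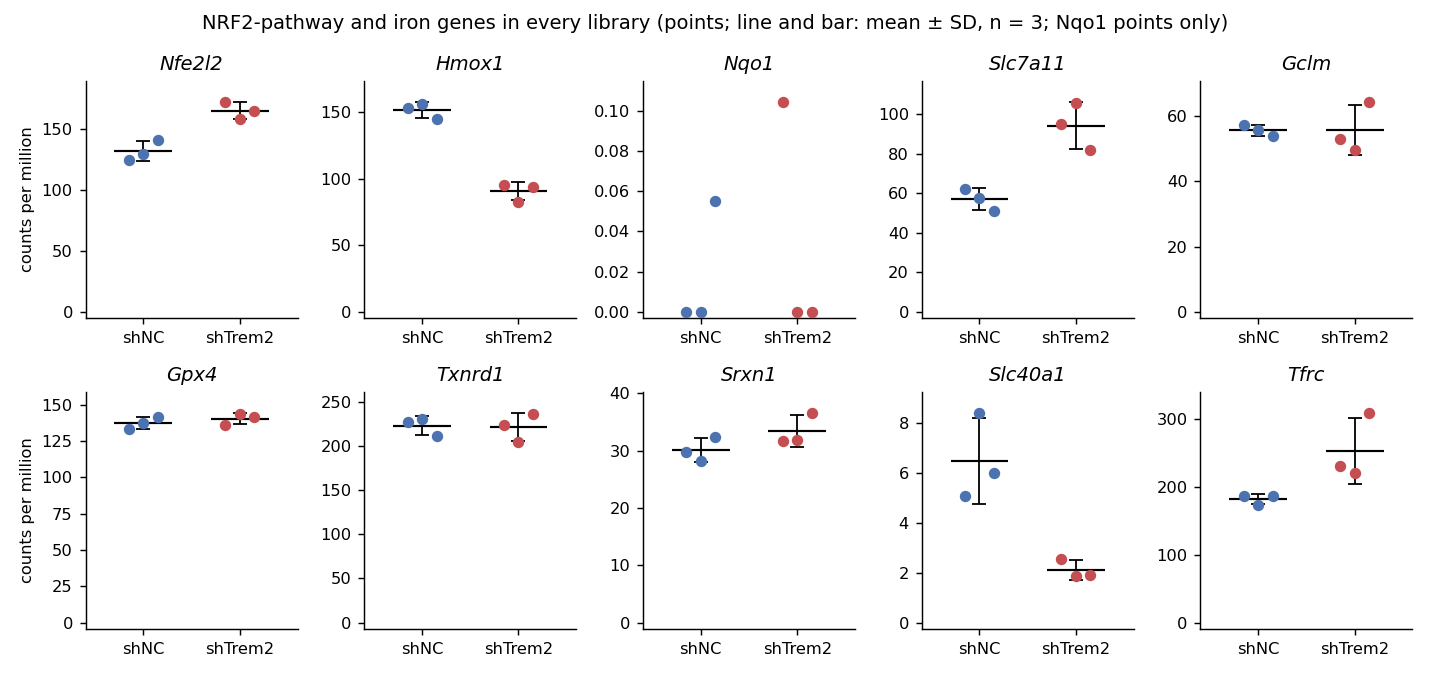
CPM of each of the 10 genes (vertical axes) in the 3 shNC and 3 shTrem2 libraries, each point a library, with mean and SD except for Nqo1. The groups separate without overlap for Nfe2l2, Hmox1, Slc7a11, Slc40a1 and Tfrc and overlap for the others, and Nqo1 stays near 0.

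**Figure D2:**
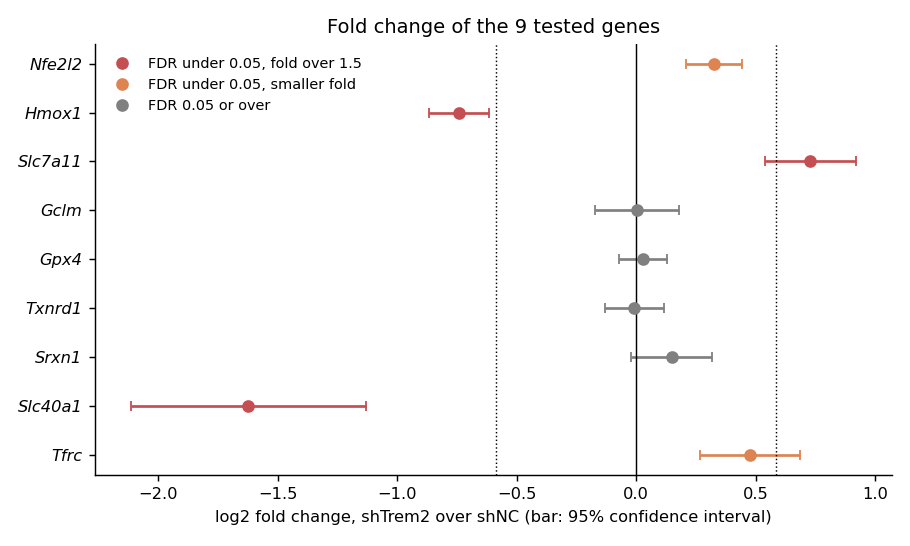
Log2 fold change of shTrem2 over shNC for the 9 tested genes with 95% confidence intervals, and dotted lines at a fold of 1.5. Slc40a1 lies lowest at -1.62 and Slc7a11 highest at 0.73, while the intervals of Gclm, Gpx4, Txnrd1 and Srxn1 include 0.

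Expression per transcript length, as FPKM, gave the order of the members within each group. In shNC it ran from Gpx4 (222 ± 6.18 FPKM, SD, n = 3) through Hmox1 (123 ± 5.76), Txnrd1 (83.7 ± 3.85), Nfe2l2 (62.8 ± 3.66), Tfrc (45.3 ± 1.62), Gclm (23.0 ± 1.66), Srxn1 (13.0 ± 0.686) and Slc7a11 (6.44 ± 0.646) to Slc40a1 (2.14 ± 0.568). No neighbours in that order overlapped between libraries. In shTrem2 Gpx4 was again first (222 ± 8.19 FPKM), followed by Txnrd1 (81.7 ± 5.29), Nfe2l2 (76.5 ± 3.19), Hmox1 (71.7 ± 5.61) and Tfrc (63.4 ± 12.3), whose neighbouring ranges overlapped. Hmox1 thus held rank 2 in shNC and rank 4 in shTrem2, although its place among these overlapping genes was not resolved. Slc7a11 (10.5 ± 1.32 FPKM) and Slc40a1 (0.763 ± 0.146) kept ranks 8 and 9.

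**Figure D3:**
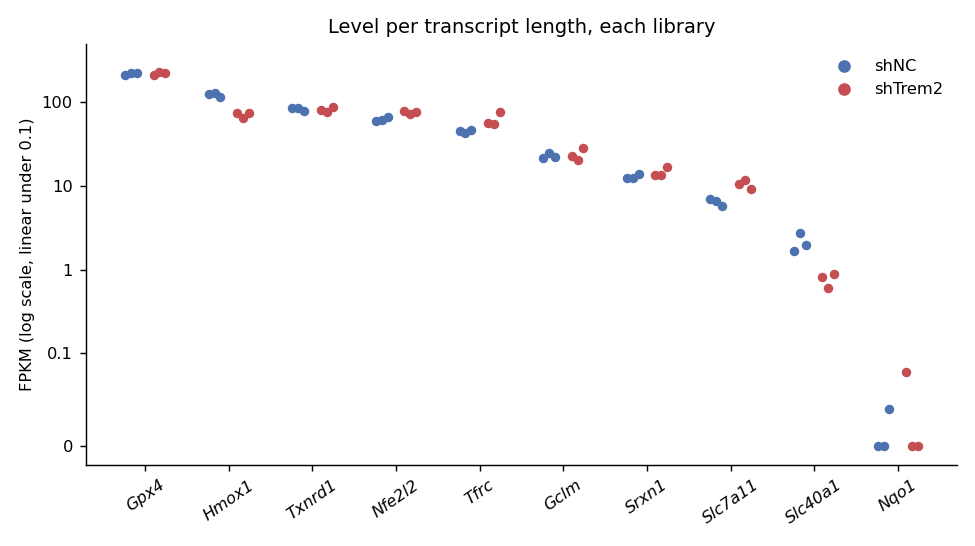
FPKM of the 10 genes in each library on a log axis that is linear under 0.1, ordered by the shNC mean. Gpx4 is highest at 222 in both groups, Slc7a11 and Slc40a1 are the lowest of the tested genes, and Nqo1 lies at or near 0.

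Nfe2l2, the gene for NRF2, was at 125, 129.6 and 140.8 CPM in the shNC libraries and at 172.3, 158.1 and 165.3 in the shTrem2 libraries. Every shTrem2 library exceeded every shNC library. This gave a log2 fold change of 0.33 ± 0.054 (SE, edgeR adjusted p 1.68e-04), a 1.25-fold difference that stayed under the fold criterion. Keap1, the adaptor that targets NRF2 for degradation, differed by a like amount, from 108 ± 9.35 CPM to 136 ± 4.84 (SD, n = 3 each, log2 fold change 0.33, edgeR adjusted p 4.20e-04). Bach1, which encodes the competing repressor, rose from 40.6 ± 1.72 to 49.7 ± 5.29 CPM (0.29, edgeR adjusted p 4.88e-03), but it did not pass on either FPKM scale.

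The small MAF partners moved the other way. Maff was at 17.4, 17.1 and 14.3 CPM in shNC and at 6.78, 4.65 and 3.97 in shTrem2, a log2 fold change of -1.66 (edgeR adjusted p 1.84e-06). Mafg, with the larger counts, went from 182 ± 4.88 to 115 ± 5.16 CPM (SD, n = 3 each), a log2 fold change of -0.66 (edgeR adjusted p 1.01e-07). These were the 2 DEGs among 13 tested NRF2 regulators (15.4%, where 21.8% of all tested genes were DEGs), and 8 passed the test without the fold criterion (61.5%, where 57.4% of all did), 4 higher and 4 lower. On both FPKM scales and with the length correction the list held 4 DEGs, 2 higher and 2 lower. Its median log2 fold change was -0.06.

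Hmox1 encodes heme oxygenase 1, which opens the heme ring and releases iron, carbon monoxide and biliverdin. It was at 153.5, 156.6 and 145.2 CPM in shNC and at 95.4, 82.8 and 94.2 in shTrem2. All shTrem2 libraries lay well below the lowest shNC library. The log2 fold change was -0.74 ± 0.059 (SE, 95% interval -0.87 to -0.61; edgeR adjusted p 1.95e-07), a 40.2% lower level in shTrem2.

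The genes around heme oxygenase were divided. The constitutive isoform Hmox2 did not pass the test, at 66.7 ± 1.77 CPM in shNC and 72.4 ± 3.28 in shTrem2 (SD, n = 3 each, log2 fold change 0.12, edgeR adjusted p 0.0852). Biliverdin reductase A (Blvra), which makes bilirubin from the product of heme oxygenase, rose by 0.93 from 56.4 ± 8.13 to 108 ± 3.01 CPM (edgeR adjusted p 4.15e-07). Biliverdin reductase B (Blvrb) was lower, at 36.9 ± 2.69 CPM in shNC and 23.6 ± 1.22 in shTrem2 (log2 fold change -0.64, edgeR adjusted p 7.49e-06). Slc48a1, the transporter that brings heme out of the phagolysosome, was also lower, at 61.9 ± 2.56 CPM and 51.3 ± 1.40 (-0.27, edgeR adjusted p 1.17e-03). Ppox, of heme synthesis, had a log2 fold change of -0.64 (edgeR adjusted p 1.06e-05) and was not a DEG on either FPKM scale, with a length correction or without shTrem2 replicate 3. Of 15 tested genes of heme uptake, synthesis and breakdown besides Hmox1, 11 passed the test, 6 higher and 5 lower (73.3%, against 57.4% of all tested genes), and 3 were DEGs (20.0%, against 21.8%).

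Slc7a11 encodes xCT, the light chain of the antiporter that imports cystine for glutathione synthesis. It was at 62.1, 57.7 and 51.0 CPM in shNC and at 95.2, 105.7 and 82.0 in shTrem2, without overlap. The log2 fold change was 0.73 ± 0.089 (SE, 95% interval 0.54 to 0.92; edgeR adjusted p 1.07e-05), a 1.66-fold higher level. It was the only DEG of the panel that rose.

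Gclm encodes the modifier subunit of glutamate-cysteine ligase, the enzyme that commits cysteine to glutathione. Its values were 57.1, 55.9 and 53.7 CPM in shNC and 53.0, 49.7 and 64.3 in shTrem2, so that the shTrem2 libraries lay on both sides of the shNC range. The log2 fold change was 0.0031 with a 95% interval from -0.17 to 0.18 (edgeR adjusted p 0.978). The catalytic subunit, Gclc, did not pass the test either, at 59.1 ± 1.59 CPM in shNC and 63.7 ± 2.04 in shTrem2 (SD, n = 3 each, 0.11, edgeR adjusted p 0.112). Glutathione reductase (Gsr), which regenerates glutathione with NADPH, rose by 0.37 from 54.5 ± 2.16 to 70.4 ± 2.05 CPM (edgeR adjusted p 7.78e-05), a call lost on both FPKM scales and with a length correction.

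Gpx4 was at 133.3, 137.5 and 141.4 CPM in shNC and at 136, 143.8 and 141.3 in shTrem2. The groups overlapped, and this gene had the smallest spread of the panel, with coefficients of variation of 2.95% and 2.83%. Its log2 fold change was 0.03 with a 95% interval from -0.07 to 0.13 (edgeR adjusted p 0.602). For the difference between these libraries, that interval lay well within the 1.5-fold criterion. Gpx1, the cytosolic glutathione peroxidase, by contrast was higher, at 154 ± 13.1 CPM in shNC and 328 ± 14.7 in shTrem2 (SD, n = 3 each, log2 fold change 1.09, edgeR adjusted p 6.43e-09).

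Txnrd1 encodes cytosolic thioredoxin reductase, which passes electrons from NADPH to thioredoxin. Its values were 226.6, 230.9 and 210.8 CPM in shNC and 224, 204.3 and 236.2 in shTrem2, with full overlap, and the log2 fold change was -0.0082 (95% interval -0.13 to 0.11; edgeR adjusted p 0.914). The count table lists 8 transcript rows for it without naming which isoform each is. The largest row held 74.5% of the gene's counts in shNC and 68.5% in shTrem2, and the row ranked 3 by counts was at 5.31, 1.14 and 1.75 CPM in shNC and 9.42, 7.16 and 10.2 in shTrem2. That row did not overlap between the groups while the sum over rows did, and it was not tested on its own. The same held for the Txnrd1 row ranked 5 (mean 1.47 CPM in shNC and 3.10 in shTrem2). It also held for the Gclm row ranked 2 (3.97 and 5.62 CPM). The share of all transcript rows without overlap was not computed. In the tested members other than Txnrd1 and Tfrc, 1 row held over 85% of the counts in every library.

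Srxn1 encodes sulfiredoxin, which restores overoxidized peroxiredoxins. It was at 29.8, 28.2 and 32.3 CPM in shNC and at 31.7, 31.9 and 36.6 in shTrem2. The ranges overlapped, and the log2 fold change of 0.15 had a 95% interval from -0.02 to 0.32 (edgeR adjusted p 0.121). Nqo1, the quinone reductase often used as a readout of NRF2, was at 0, 0 and 1 count in the shNC libraries and at 2, 0 and 0 in the shTrem2 libraries. All were under the 3 counts that a count of 0 allows, 0.155 to 0.186 CPM at these depths, so Nqo1 was not detectable in either group and no fold is given.

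The wider glutathione and thioredoxin list had 11 DEGs among 36 tested genes (30.6%, against 21.8% of all tested genes), 4 higher and 7 lower, and 28 passed the test without the fold criterion (77.8%, against 57.4%), 13 higher and 15 lower. Its median log2 fold change was 0.09. Besides Gpx1, Mgst2, a microsomal glutathione transferase, rose by 0.97 from 27.9 ± 1.76 to 54.6 ± 3.73 CPM (SD, n = 3 each, edgeR adjusted p 9.88e-08). The glutathione transferase Gstt1 had the largest fall of the list, from 13.1 ± 1.1 to 1.34 ± 0.314 CPM (log2 fold change -3.29, edgeR adjusted p 6.43e-09). Gstp1, another transferase, fell by 1.38 and glutaredoxin (Glrx) by 1.09, with edgeR adjusted p of 9.92e-08 and 7.37e-09. Gstp1 has near-identical paralogs and its value depends on how shared reads were assigned.

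Txnip, which binds and inhibits thioredoxin and is known as a glucose-responsive gene, dropped from 2180 ± 291 to 790 ± 93.3 CPM (SD, n = 3 each), a log2 fold change of -1.46 (edgeR adjusted p 2.37e-08). Thioredoxin itself (Txn1) rose by 0.18 from 244 ± 6.24 to 276 ± 24.3 CPM (edgeR adjusted p 0.0187). This call was lost on both FPKM scales, with a length correction and without shNC replicate 2, shTrem2 replicate 1 or shTrem2 replicate 3.

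In the NADPH supply and detoxification list, 13 of 25 tested genes were higher and 5 lower at an adjusted p under 0.05 in edgeR, where 28.8% and 28.6% of all tested genes were, and the median log2 fold change was 0.22. Its DEGs were 5 higher and 1 lower (24.0%, against 21.8% of all tested genes), and 3 higher and 1 lower when scaled by library size only, on log2(FPKM + 1) or without shNC replicate 3. Malic enzyme (Me1), which makes NADPH from malate, was at 75.2, 79.8 and 78.5 CPM in shNC and at 344.2, 348.3 and 265.8 in shTrem2. This was the largest rise of the list, a log2 fold change of 2.04 ± 0.087 (SE, edgeR adjusted p 6.78e-10). Pgd, of the oxidative pentose phosphate pathway, rose by 0.75 from 192 ± 8 to 322 ± 35.4 CPM (SD, n = 3 each, edgeR adjusted p 6.32e-07). The oxidative stress growth inhibitor gene Osgin1 rose by 0.99 at low level, from 1.99 ± 0.409 to 3.95 ± 0.520 CPM (edgeR adjusted p 2.16e-03). Trim16 was the lower DEG, at 6.72 ± 0.650 CPM in shNC and 3.54 ± 0.315 in shTrem2 (-0.93, edgeR adjusted p 2.61e-04). The aldo-keto reductase Akr1b8 and Ugdh, which makes UDP-glucuronate, stood at 0.61 and 0.59, close to the fold criterion, and each fell under it in several alternatives, both FPKM scales among them.

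Slc40a1, the gene for ferroportin, was at 5.10, 8.43 and 5.99 CPM in shNC (82, 152 and 109 counts) and at 2.56, 1.88 and 1.91 in shTrem2 (49, 36 and 37 counts). It was low in both groups, and every shTrem2 library was below every shNC library. As a log2 fold change this was -1.62 ± 0.228 (SE, 95% interval -2.11 to -1.13; edgeR adjusted p 3.75e-05), the largest difference of the panel. On the log2(FPKM + 1) scale, where a pseudocount compresses genes at this level, the difference was -0.82, and leaving out single libraries gave -1.78 to -1.40.

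Tfrc encodes transferrin receptor 1, which takes up iron-loaded transferrin. It was at 186.8, 173.7 and 187.4 CPM in shNC and at 230.7, 221.2 and 310 in shTrem2. The groups did not overlap, but shTrem2 replicate 3 stood above the other 2 of its group. The log2 fold change was 0.48 ± 0.097 (SE, edgeR adjusted p 8.76e-04) and fell to 0.30 without that replicate (edgeR adjusted p 1.24e-04), under the fold criterion in both cases. The 2 transcript rows that held nearly all of its counts were both higher in shTrem2, from 137 ± 7.89 to 186 ± 33.1 CPM and from 45.3 ± 0.655 to 66.6 ± 15.4 (SD, n = 3 each).

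Tfrc is also known to be high in dividing cells, and genes of the proliferation list moved in the same direction. All 12 passed the test as higher in shTrem2, where 28.8% of all tested genes did. Of the 12, 11 were DEGs (91.7%), where 9.46% of all tested genes were higher DEGs. The median log2 fold change of the list was 0.88. The replication helicase genes Mcm5 and Mcm6 rose by 1.16 and 1.05, from 122 ± 5.50 to 273 ± 19.8 CPM and from 142 ± 9.34 to 293 ± 25.3 (SD, n = 3 each), and Mcm3 and Mcm2 by 0.95 each. The mitotic kinase gene Plk1 rose by 0.98 and cyclin B1 (Ccnb1) by 0.90. These are transcript values and not a measure of cell division. In its cell assays on IL-4-treated RAW264.7 cells with debris, the paper reports the opposite direction. There, Trem2 knockdown lowered proliferative activity and cell number and raised apoptosis. The part of proliferation in the Tfrc result was not tested.

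Among the other iron genes, the ferritin subunits were by far the most abundant. Fth1, the heavy chain with ferroxidase activity, was at 4437, 4526 and 4431 CPM in shNC and at 2791, 2662 and 2886 in shTrem2. Ftl1, the light chain, was at 2977, 3131 and 2796 CPM in shNC and at 1878, 1871 and 1966 in shTrem2. Both were lower in every shTrem2 library, with log2 fold changes of -0.68 and -0.64 (edgeR adjusted p 4.52e-08 and 1.91e-07). Ferritin genes have processed pseudogenes that can share reads with them, and how the authors' counting divided such reads is not stated.

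The endosomal iron transporter DMT1 (Slc11a2) was at 107 ± 4.40 CPM in shNC and 50.1 ± 1.02 in shTrem2 (SD, n = 3 each), a log2 fold change of -1.09 (edgeR adjusted p 2.38e-09). Slc11a1, the NRAMP1 transporter of the phagosome, fell by 0.59 from 60.9 ± 2.17 to 40.3 ± 0.811 CPM (edgeR adjusted p 1.20e-06), a fold of 1.51 that dropped under the criterion in 5 alternatives: both FPKM scales, the length correction and the fits without shNC replicate 1 or shTrem2 replicate 2. Ceruloplasmin (Cp), the ferroxidase that works with ferroportin, was at 145.4, 147.2 and 145.1 CPM in shNC and at 50.2, 51.3 and 49.4 in shTrem2, a log2 fold change of -1.54 (edgeR adjusted p 8.54e-11). Lcn2, which binds iron-carrying siderophores, had 268, 261 and 203 counts in shNC and 0, 1 and 2 counts in shTrem2 (edgeR adjusted p 1.31e-09).

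Against this direction, Hfe, a partner of transferrin receptor 1, rose by 1.24 from 13.9 ± 2.14 to 32.9 ± 0.416 CPM (SD, n = 3 each, edgeR adjusted p 1.71e-07). Of the iron regulatory protein genes, Ireb2 did not pass the test, at 195 ± 5.23 CPM in shNC and 202 ± 2.53 in shTrem2 (log2 fold change 0.05, 95% interval -0.05 to 0.14; edgeR adjusted p 0.389), and Aco1 rose by 0.33 from 42.8 ± 1.5 to 53.9 ± 0.992 CPM (edgeR adjusted p 2.22e-04).

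Of 23 tested genes of iron uptake, storage and export besides the members, 10 were DEGs (43.5%, where 21.8% of all tested genes were), 2 higher and 8 lower. The median log2 fold change was -0.18. Of those 8, a pair stood under the level set for naming genes.

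**Figure D4:**
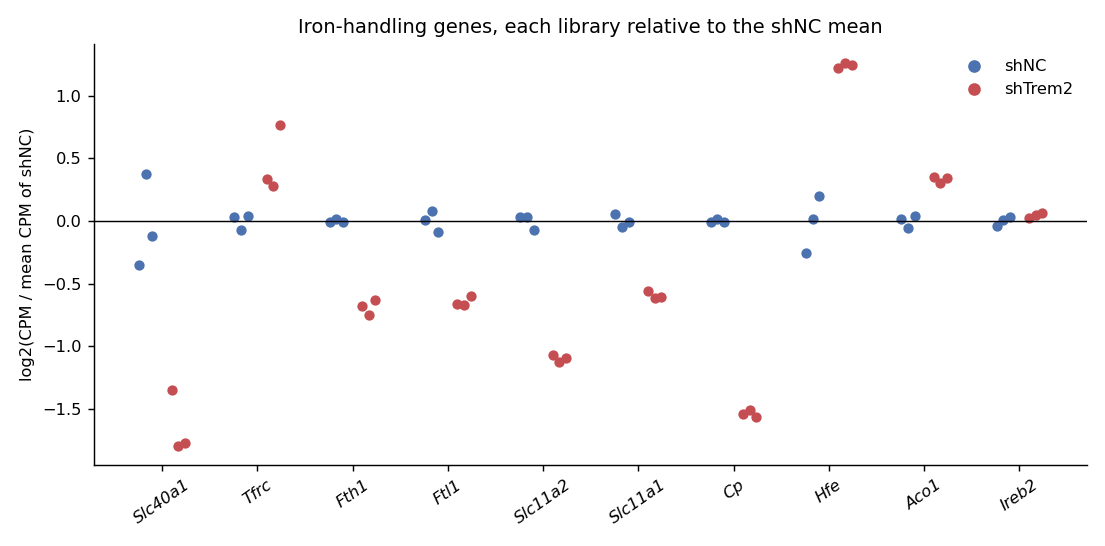
Log2 of CPM over the shNC mean for the iron members Slc40a1 and Tfrc and 8 further iron genes, each point a library. Fth1, Ftl1, Slc11a2, Slc11a1 and Cp lie below the shNC libraries together with Slc40a1, Tfrc, Hfe and Aco1 lie above them, and Ireb2 stays near 0.

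Ferroptosis is cell death through iron-dependent lipid peroxidation, which Gpx4 opposes. Acsl4, which loads polyunsaturated lipids into membranes, did not pass the test, at 168 ± 5.21 CPM in shNC and 168 ± 7.88 in shTrem2 (SD, n = 3 each, log2 fold change -0.006, 95% interval -0.11 to 0.10; edgeR adjusted p 0.928). Aifm2, the gene for FSP1, which protects membranes through ubiquinone, was at 79.7, 78.3 and 67.9 CPM in shNC and at 27.5, 31.0 and 23.9 in shTrem2 (-1.46, edgeR adjusted p 1.76e-08). Sat1, a polyamine-catabolic enzyme, fell by 1.71 from 493 ± 32.7 to 151 ± 7.25 CPM (edgeR adjusted p 1.06e-10). The acyltransferase gene Mboat1 rose by 1.28 from 12.8 ± 2.20 to 31.2 ± 2.61 CPM (edgeR adjusted p 4.39e-07). These were the 3 DEGs among 17 tested genes of the list (17.6%, against 21.8% of all tested genes), where 12 passed without the fold criterion (70.6%, against 57.4%), 6 in each direction, and the median was 0.01.

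The pathway column of the deposited annotation gave another view, chosen after the data were seen, which shares genes with the lists above. Of 35 tested genes that it assigned to Ferroptosis, 9 were DEGs (25.7%, against 21.8% of all tested genes), 1 higher and 8 lower (9.46% and 12.4% of all tested genes). The higher gene was Slc7a11, and the lower ones were Hmox1, Slc40a1, Fth1, Ftl1, Slc11a2, Cp, Sat1 and Trf. Trf, the transferrin gene, had a log2 fold change of -1.26 (edgeR adjusted p 1.92e-05). The annotation placed 6 members there, these 3 with Tfrc, Gclm and Gpx4.

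Of the genes that make oxidants, 8 of the NADPH oxidase and nitric oxide list were tested and 3 passed (37.5%, against 57.4% of all tested genes), 1 higher and 2 lower. The only DEG was Nos2, inducible nitric oxide synthase, at 88.0, 81.6 and 62.8 CPM in shNC and 25.9, 24.7 and 21.4 in shTrem2 (log2 fold change -1.69, edgeR adjusted p 3.17e-08). Over all 8 lists, 47 of 149 tested genes were DEGs (31.5%, against 21.8% of all tested genes), 24 higher and 23 lower. The proliferation list supplied 11 of the higher ones, and without it 36 of 137 were DEGs (26.3%).

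**Figure D5:**
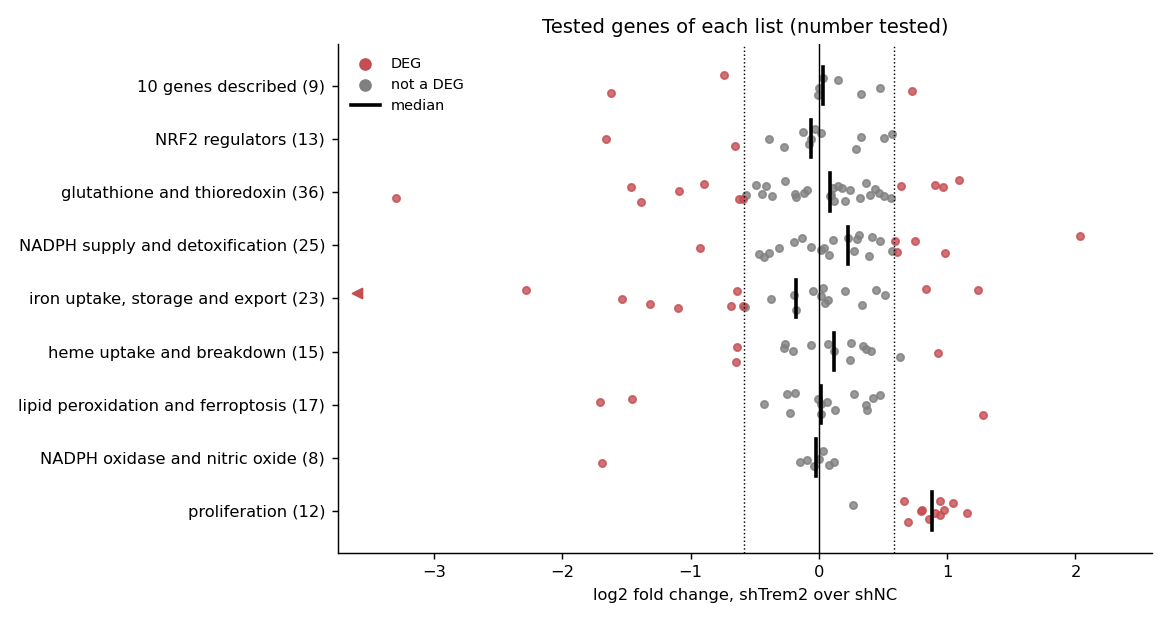
Log2 fold changes of the tested members and of the tested genes of 8 pathway lists, each point a gene, red for DEGs, with black bars at the list medians and dotted lines at a fold of 1.5. Proliferation genes lie to the right (median 0.88) and iron genes to the left (median -0.18), and the panel is centred near 0. Lcn2 lies beyond the left edge and is drawn as an arrow.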

How the data were processed

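RNA was measured in 6 RAW264.7 libraries, 3 shNC and 3 shTrem2, grouped by the hairpin named in their labels. Per the paper's methods, the authors made polyA-selected stranded libraries, trimmed reads with fastp, aligned them orientation-aware with HISAT2 and assembled transcripts with StringTie. The submitters' processing notes name GRCm39, while the counting tool and annotation release are not given in the sources used here. The authors deposited estimated counts per transcript, not scaled for depth or length, of which 79.3% of nonzero values were not whole (tolerance 0.001). They also deposited FPKM per gene, scaled for depth and effective length. Mean FPKM columns of the 2 groups and the authors' annotation other than KEGG pathway names were not used.

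Transcript values of a symbol were added up and rounded to whole counts, and rows without a symbol (0.908% to 1.12% of counts) were left out. The main test was edgeR 4.0.16 (R 4.3.3) with TMM factors (0.986 to 1.015), filterByExpr and the quasi-likelihood test. CPM were counts over library size times TMM factor. DEGs had a Benjamini-Hochberg adjusted p under 0.05 and a fold over 1.5, the study's own criteria. The common biological coefficient of variation was 0.0598. Alternatives were DESeq2 1.42.0 and, in limma 3.58.1, voom, and limma-trend with a pseudocount of 1 or 0.1 added to FPKM before taking log2, as well as other scalings, filters and thresholds, a replicate block, the omission of each library and, added after seeing the data, an offset for effective length. The fits were tested on simulated data.

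The members, lists and motifs were chosen with earlier results of these data known. Named genes were the members, Trem2, up to 6 DEGs per list with the largest change (mean log2 CPM no lower than 1), and fixed partners: Keap1, Bach1, Gclc, Gsr, Txn1, Fth1, Ftl1, Slc11a1, Slc11a2, Ireb2, Aco1, Acsl4, Aifm2, Hmox2, Blvrb and Slc48a1. The looser promoter motif, the hairpin search, the pathway names from the annotation and Trf were added after values were seen. Of 183 listed symbols 181 matched, and Akr1b3 and Tf did not. A gene that the naming rule selects from the iron list is not reported here.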

Additional observations from a re-analysis of the deposited data

How the results depend on the processing

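The 5 members that passed the test kept their direction and passed in every alternative fit, and the 3 DEGs among the members stayed 3 under other tests, scalings, filters, units and left-out libraries. Among these totals only the fold criterion moved a count past 1.5 times: with a fold over 2, DEGs numbered 1339 among all genes, 1 among the members (Slc40a1) and 19 among the lists, and with no fold criterion 7763, 5 and 108. By construction these differ in the threshold alone. Within single lists, the NRF2 regulators also went from 2 DEGs to 4 on both FPKM scales and with the length offset (the cause was not tested). No gene reversed a call. Called log2 fold changes of the members ranged from 0.28 to 0.38 for Nfe2l2, -0.78 to -0.68 for Hmox1, 0.63 to 0.81 for Slc7a11, -1.78 to -0.82 for Slc40a1 and 0.30 to 0.57 for Tfrc. Scaling by library size alone took the higher share of all DEGs from 43.4% to 39.0%. The replicate numbers did not pair the libraries (correlations of same-numbered deviations 0.0062, -0.0045 and 0.0065), and a replicate block gave 2911 DEGs, 2871 of them among the 2951, and 3 among the members. Leaving out each library gave 2789 to 3105 DEGs. Depth limits Nqo1, at 2 counts or fewer in every library, and Slc40a1, whose shTrem2 values rest on 36 to 49 counts.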
